A study of Mus musculus with 375 samples.

Results

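MHC class II molecules present peptides to CD4+ T cells. They are best known from dendritic cells, macrophages and B cells, but the epithelium of the small intestine, its crypt base stem cells included, can make them too. The invariant chain Cd74 escorts the newly made alpha and beta chains, the H2-DM pair loads the peptide, and the co-activator Ciita switches these genes on together through short promoter elements, the X and Y boxes, that are bound by RFX, CREB and NF-Y proteins.

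The cells described here are the HFD cells in which both Cd74 and H2-Ab1 were found. They were chosen by measured values, from single cells with at least 2000 genes above TPM 0, as those with both transcripts at 1 TPM or more. There were 62 such cells among 183 HFD cells and 367 passing cells of 375 in the series, 32 in the set HFD 1 and 30 in HFD 2. They are called class II-positive below. They were set against the 42 and 33 HFD cells of the same sets with neither transcript, and against the 81 and 63 cells of the sets control 1 and control 2 that held both. The remaining HFD cells, 17 and 29, held 1 of the transcripts and stayed out of the tests.

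The study compared single cells that were taken from mouse small intestine by flow cytometry as Lgr5+ and made into Smart-seq2 libraries, a plate method that copies whole transcripts of one cell per well. The mice had been fed a high-fat diet (HFD) or a control diet, and strain, age, sex, time on the diet and the composition of either diet are not in the labels. Each diet has 2 sets of 93 or 94 cells. The labels do not tie a set to a mouse or a day. Every p between the diets therefore rests on the spread between these sets, which may be technical. Between HFD cells with both and with neither transcript the set was a block. There p rests on how far the difference varied between the 2 sets, which may be technical as well. Values are TPM, scaled to one total in every cell. Read depth is therefore unknown here, and the number of genes found per cell is the nearest measure of capture.

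Class II-positive cells made up 35.2% of HFD 1 (95% Clopper-Pearson interval 25.4 to 45.9%) and 32.6% of HFD 2 (23.2 to 43.2%), against 87.1% of control 1 (78.5 to 93.2%) and 69.2% of control 2 (58.7 to 78.5%). These intervals, and those below, cover counting error only. The threshold itself cut through no values: 0 HFD cells had a Cd74 or H2-Ab1 value above 0 and under 1 TPM, so the classes separate cells in which a transcript was listed from cells in which it was listed at 0. The 3 lowest members held 6.75, 9.86 and 12.21 TPM of the scarcer transcript. Among the cells with 1 transcript, 14 of 17 in HFD 1 and 21 of 29 in HFD 2 had Cd74, and the value of the transcript they held ran from 2.86 through a median of 45.8 to 1086 TPM.

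The number of genes found was close in both classes. A median of 6686 genes was found in class II-positive cells and 6926 in class II-negative cells of HFD 1, and 6393.5 and 6373 in HFD 2. The differences of −240 and 20.5 genes had opposite signs. Lgr5, the receptor by which the cells were sorted, was at 1 TPM or more in 29 of 32 and 27 of 30 class II-positive cells, against 41 of 42 and 32 of 33 class II-negative cells. Ptprc, the pan-leukocyte antigen CD45, was in 0 class II-positive and 0 class II-negative cells of both sets. Of 20 myeloid and dendritic cell markers, 5 and 6 were found in any class II-positive cell, with a summed level of at most 96.6 and 236 TPM, against 5 and 6 markers and at most 138 and 77.5 TPM in class II-negative cells. Of 10 B cell markers, 1 and 2 were found, at a sum of at most 3.52 and 9.03 TPM, against 2 and 3 markers at no more than 3.67 and 6.58 TPM in class II-negative cells.

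The 3 stretches below are from RefSeq promoters on GRCm38.p6, chromosome 17, printed 5′ to 3′ along the gene's own strand, with matches to the Y box core CTGATTGG or to the X box letters NAACNGATG in capitals. They are shown because their letters match those motifs, in genes that differ in how often the class II-positive cells held them. Both strands of the 250 bases before and 50 after each start site were searched, and no 2 matches overlap.
H2-Eb1 at chr17:34305757-34305832, + strand: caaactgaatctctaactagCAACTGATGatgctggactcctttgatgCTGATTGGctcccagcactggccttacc
H2-Aa at chr17:34287847-34287894, - strand: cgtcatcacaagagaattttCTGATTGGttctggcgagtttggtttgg
H2-DMb1 at chr17:34153078-34153126, + strand: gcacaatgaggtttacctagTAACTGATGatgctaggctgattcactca
H2-Eb1 holds both elements, with the X box letters starting 90 bases and the Y box core 62 bases before the start site in that table. H2-Aa holds a Y box core 51 bases before it and H2-DMb1 the X box letters 93 bases before it. The Y box core was found in 4.097% of 32851 promoters of this length, the X box letters in 2.313% and both together in 0.0944%. A match is a description of letters, and neither of the 2 H2-DMa promoters held one of these motifs.

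In class II-positive HFD cells Cd74 ran from 69.6 through a median of 349.6 to 1818 TPM in HFD 1 and from 28.1 through 381 to 2034 TPM in HFD 2, against medians of 388 and 453 TPM in the class II-positive cells of control 1 and control 2. H2-Ab1, the beta chain of the I-A molecule, had medians of 133 and 274 TPM, against 184 and 297 TPM. The ranges overlap almost entirely, and since both genes chose the cells these levels carry no test. Across the members, Cd74 and H2-Ab1 correlated on the log2(TPM + 1) scale with Pearson's r of 0.67 over the 32 cells of HFD 1 and 0.53 over the 30 of HFD 2, and with 0.68 and 0.71 over the control cells. Cells of a set share their preparation and their TPM total.

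The partner chains were found less evenly. H2-Aa, the alpha chain that pairs with H2-Ab1, was in 13 of 32 class II-positive cells of HFD 1 (40.6%, interval 23.7 to 59.4%) and 21 of 30 of HFD 2 (70.0%, 50.6 to 85.3%), against 54 of 81 and 49 of 63 in the control sets and 0 class II-negative cells. H2-Eb1, the beta chain of the I-E molecule, was in 22 of 32 and 23 of 30 class II-positive HFD cells, against 2 of 42 and 2 of 33 class II-negative ones and 78 of 81 and 58 of 63 class II-positive control cells. H2-DMa was in 14 of 32 and 16 of 30 cells, against 4 of 42 and 5 of 33 without class II and 66 of 81 and 49 of 63 in the control sets. H2-DMb1, the other chain of the peptide loader, was in 7 of 32 and 11 of 30 cells, against 0 class II-negative cells and 47 of 81 and 29 of 63 control cells. For H2-Eb1, H2-DMa and H2-DMb1 both HFD sets had a lower share than both control sets, whereas the H2-Aa share of HFD 2 lay between those of the control sets. Of the rest of the list, H2-DMb2 and H2-Eb2 were in 1 class II-positive HFD cell each, and H2-Oa, H2-Ob and H2-Ea-ps were in none. H2-Oa was in none of the control cells either.

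**Figure D1:**
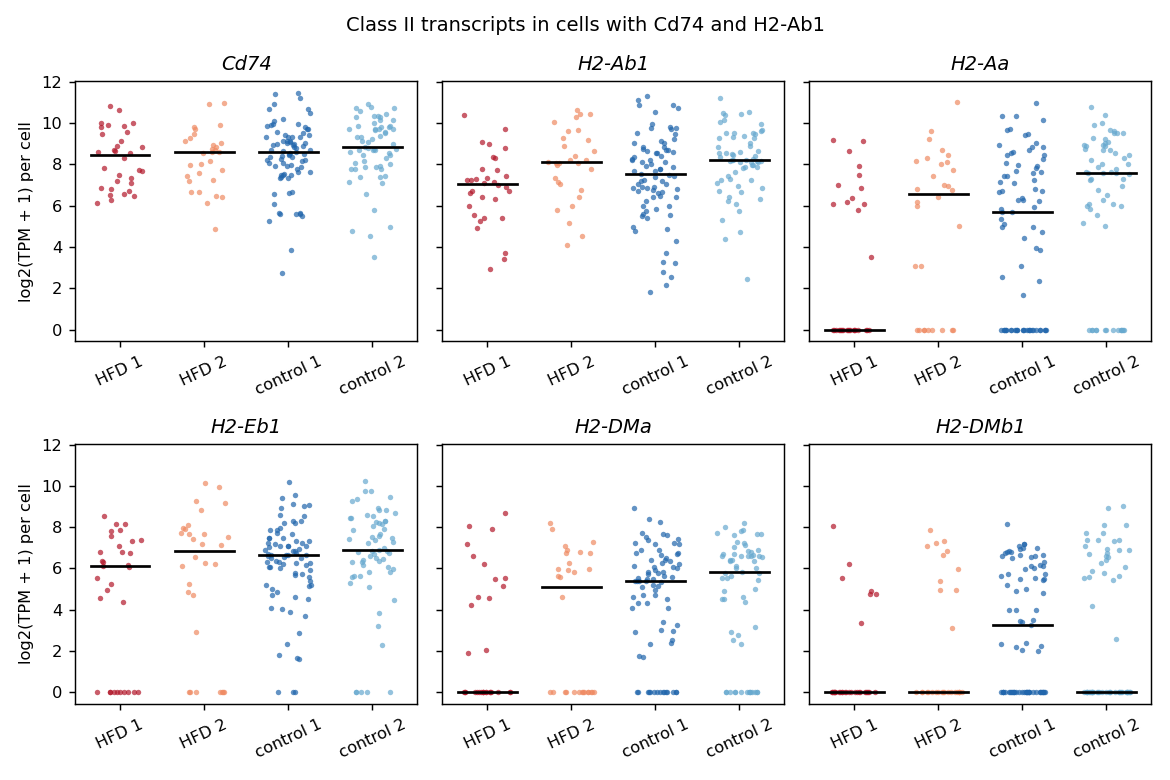
Each point is a cell with both Cd74 and H2-Ab1, by set, and the y axis is log2(TPM + 1) per cell; black lines are medians. Cd74 and H2-Ab1 overlap across the 4 sets, while more HFD than control cells sit at 0 for H2-DMa, where 14 of 32 and 16 of 30 HFD cells and 66 of 81 and 49 of 63 control cells lie above it.

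Counted over H2-Aa, H2-Eb1, H2-DMa, H2-DMb1 and Ciita, the class II-positive cells held a mean of 1.97 of these 5 genes in HFD 1 and 2.70 in HFD 2, against 0.214 and 0.303 in class II-negative cells. The cells with 1 of the choosing transcripts held 0.941 and 1.07, and the class II-positive control cells 3.57 and 3.30. Members with few of the 5 also had less Cd74: median Cd74 was 185 and 138 TPM in the 12 and 6 members with 0 or 1 of them, and 898 and 721 TPM in the 5 and 6 members with 4 or 5. No class II-negative HFD cell held more than 2 of the 5. Whether a transcript listed at 0 was absent or not captured cannot be told apart in these values.

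Ciita itself averaged 10.02 and 12.1 TPM in class II-positive HFD cells, against 3.41 and 1.22 TPM in class II-negative cells. It was in 7 of 32 and 10 of 30 cells, against 3 of 42 and 3 of 33, and in 44 of 81 and 23 of 63 class II-positive control cells. Its log2 difference between the HFD classes was 1.94 (SE 0.55) and did not pass the test over all genes (limma adjusted p = 0.417). Rfx5, a subunit of the RFX complex on the X box, averaged 4.66 and 3.64 TPM, against 4.96 and 9.65 TPM in class II-negative cells. Of the 9 class II transcription factors on the list, 8 were tested between the HFD classes and 0 passed, with a median log2 difference of −0.06 against −0.03 for all genes tested.

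The test between the HFD classes compared log2(mean TPM + 1) of the cells of each class, with the set as a block, over 11692 genes. These averaged 1 TPM or more, and class II chains were left out. At a Benjamini-Hochberg adjusted p under 0.05 in limma, 20 genes were higher in class II-positive cells (0.171% of those tested) and 1 was lower (0.00855%), while 753 had an unadjusted p under 0.05. With 2 sets and a block there is 1 residual degree of freedom, so that the calls lean on the variance shared across genes. In limma without a trend of variance on expression 0 genes passed and 683 had an unadjusted p under 0.05. With all low genes kept, 0 passed and 792 had such a p. When log values of single cells were averaged in place of TPM, 13 genes passed as higher and 32 as lower.

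No gene of class I presentation or of the interferon response passed over all cells on mean TPM. Tap1, the transporter that brings peptides to class I molecules, averaged 27.7 and 30.9 TPM in class II-positive cells, against 10.3 and 6.66 TPM in class II-negative cells, and was in 16 of 32 and 16 of 30 of them, against 10 of 42 and 6 of 33. Its log2 difference of 1.70 (SE 0.38) gave an adjusted p = 0.189 in limma. The immunoproteasome subunit Psmb9 averaged 65.0 and 126 TPM, against 36.4 and 47.8 TPM, and was in 24 of 32 and 25 of 30 cells, against 27 of 42 and 18 of 33, and Psmb8 averaged 119 and 274 TPM, against 84.8 and 103 TPM (limma adjusted p = 0.229 and 0.284). In each of these genes the class II-positive value was above the class II-negative one within both sets. B2m, the light chain of class I, averaged 913 and 1080 TPM, against 841 and 925 TPM.

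Over the list of class I and peptide loading genes, 28 were tested, 0 passed, 20 were above 0 and 8 below. Their median log2 difference was 0.15 against −0.03 for all genes. For the interferon gamma response 0 of 19 passed, with 13 above 0, 6 below and a median of 0.27. For the type I interferon response 0 of 23 passed, with 15 above 0, 8 below and a median of 0.30. Irf1, a transcription factor induced by interferon gamma, averaged 94.8 and 111 TPM in class II-positive cells, against 88.6 and 82.0 TPM in class II-negative cells, a log2 difference of 0.27 (SE 0.22). Irf9, the DNA-binding part of the type I signal, averaged 30.3 and 33.2 TPM, against 16.4 and 8.80 TPM (limma adjusted p = 0.414). Ifnar2, on the type I list, went the other way, at 7.94 and 19.5 TPM, against 14.7 and 41.5 TPM (limma adjusted p = 0.705). Cd274, fixed by name, was lower as well, at 0.333 and 0.26 TPM, against 4.01 and 1.27 TPM (limma adjusted p = 0.832). When log values of single cells were averaged in place of TPM, Tap1 (1.69, SE 0.41) and Psmb9 (1.77, SE 0.42) did pass, with limma adjusted p = 0.0181 and 0.0168. Paneth-marker cells were those in which at least 3 of 16 Paneth markers reached 10 TPM, 10 and 6 class II-positive cells, against 16 and 8 class II-negative ones. Without them Psmb9 (1.29, SE 0.32) and H2-Q9 (3.12, SE 0.77), a class I gene with close copies that was named after its values were seen, passed with limma adjusted p = 0.0322 and 0.0308. In the interquartile range of gene number Psmb8 (1.12, SE 0.28) and Oas1a (2.49, SE 0.63), an antiviral enzyme of the type I list, passed with limma adjusted p = 0.0442 each.

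The called genes held by at least 15 class II-positive cells of each set were Adh6a, Adh1, Sepp1, Ceacam10, 2210407C18Rik, Rn45s and Olfm4. Adh6a, an alcohol dehydrogenase, averaged 46.0 and 84.9 TPM in class II-positive cells, against 2.28 and 4.49 TPM in class II-negative cells. It was in 15 of 32 and 15 of 30 members, against 2 of 42 and 5 of 33 cells, and the classes did not overlap across sets. The log2 difference was 3.91 (SE 0.37, limma adjusted p = 0.000295). Cells with 1 of the choosing transcripts held it in 8 of 17 and 6 of 29, and class II-positive control cells in 26 of 81 and 23 of 63. Adh1, the enzyme of the same family that also oxidises retinol, averaged 401 and 274 TPM, against 38.5 and 124 TPM, and was in 25 of 32 and 21 of 30 cells, against 16 of 42 and 20 of 33. Its log2 differences within HFD 1 and HFD 2 were 3.35 and 1.14 (limma adjusted p = 0.0185). Both genes lie on the + strand of chromosome 3 of GRCm38, Adh1 at chr3:138260991-138290698 and Adh6a at chr3:138313286-138331134.

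Sepp1, the selenium carrier selenoprotein P, averaged 56.5 and 135 TPM, against 13.4 and 31.7 TPM, a log2 difference of 2.03 (SE 0.27, limma adjusted p = 0.00523). Ceacam10, a secreted member of the carcinoembryonic antigen family, averaged 118 and 129 TPM, against 23.6 and 40.5 TPM, and was in 18 of 32 and 16 of 30 cells, against 7 of 42 and 5 of 33. Adh1, Sepp1 and Ceacam10 fall outside the rule for naming genes and were picked after their values were seen, since they are called and are held by many cells. The gene with the smallest p, 2210407C18Rik, was also picked after its values were seen. It averaged 913 and 1250 TPM, against 373.5 and 451 TPM, and was in most cells of either class (27 of 32 and 28 of 30, against 37 of 42 and 29 of 33), so that its difference is one of level.

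**Figure D2:**
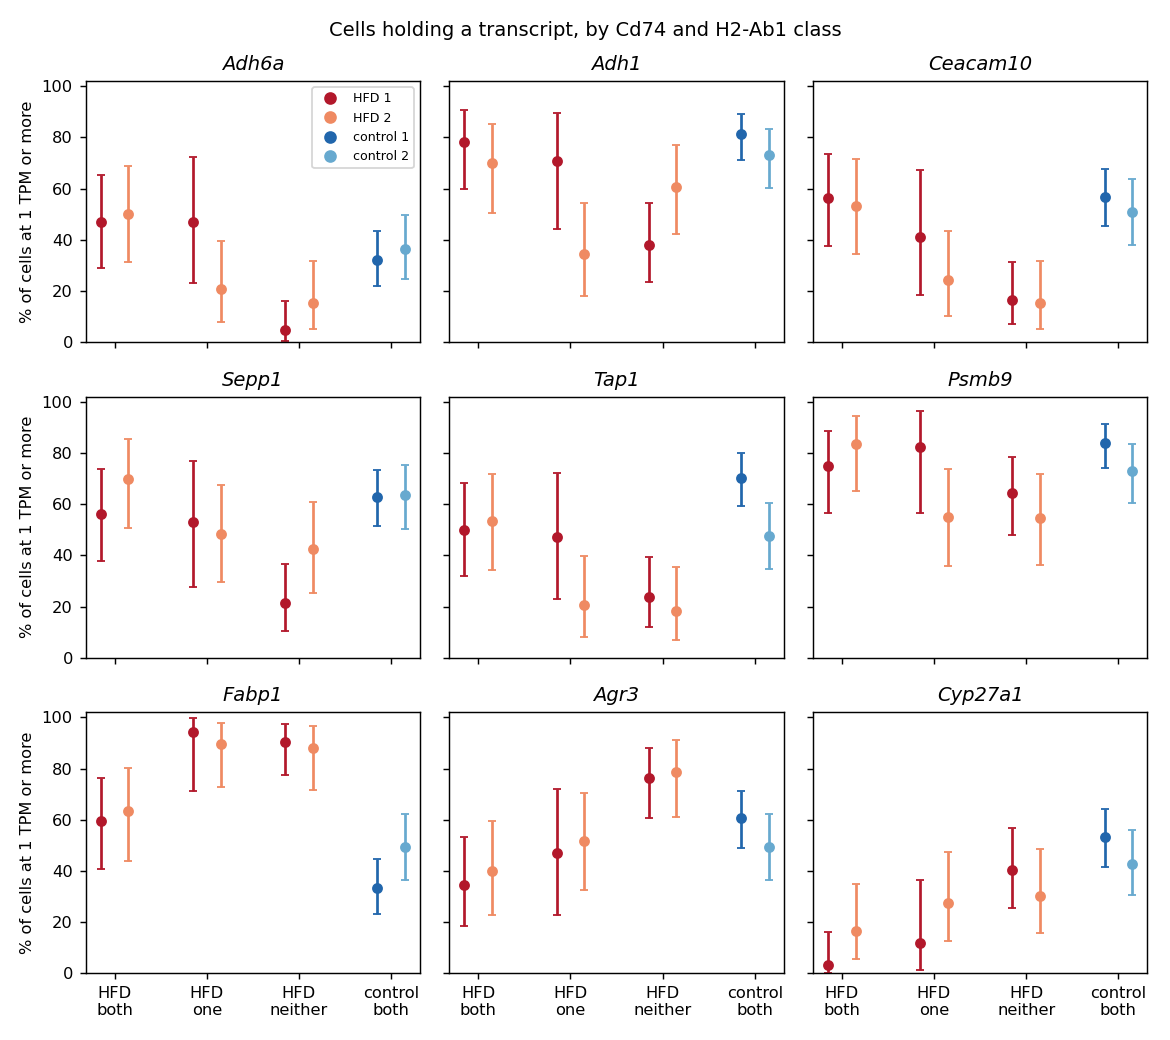
Percent of cells at 1 TPM or more for 9 genes, in HFD cells with both, one or neither of Cd74 and H2-Ab1 and in control cells with both; points are sets and bars are 95% Clopper-Pearson intervals. Adh6a is in 15 of 32 and 15 of 30 class II-positive HFD cells and 2 of 42 and 5 of 33 class II-negative ones, and Fabp1 runs the other way within the HFD sets.

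**Figure D3:**
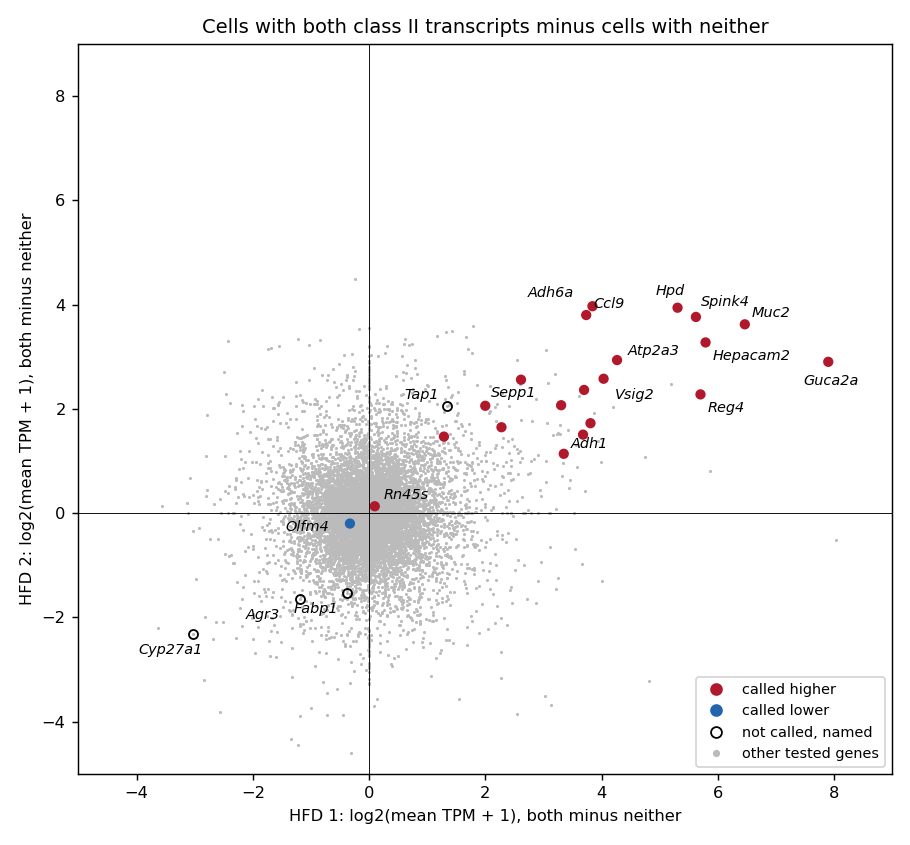
Each point is a gene, with the difference in log2(mean TPM + 1) between HFD cells with both and with neither class II transcript in HFD 1 on the x axis and in HFD 2 on the y axis. The 20 genes called higher lie in the upper right, and Fabp1, Agr3, Cyp27a1 and Tap1, drawn as open circles, did not pass.

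Another 6 of the genes called higher, Muc2, Spink4, Guca2a, Agr2, Tff3 and Fcgbp, are on the list of goblet markers, and the levels of those described next rested on a handful of cells. Goblet cells secrete the mucus layer. Muc2, its gel-forming mucin, averaged 95.2 and 35.6 TPM in class II-positive cells, against 0.0924 and 1.97 TPM in class II-negative cells (limma adjusted p = 0.00228), but was in 4 of 32 and 1 of 30 members, and 1 cell gave 99.9% of its sum in HFD 2. Spink4, a secreted protease inhibitor of goblet cells, averaged 261 and 219 TPM, against 4.33 and 15.2 TPM, and was in 9 of 32 and 5 of 30 members, against 5 of 42 and 9 of 33 class II-negative cells, so that in HFD 2 a smaller share of the members held it. One cell gave 94.7% of its HFD 2 sum. Guca2a, the gut hormone guanylin, averaged 237 and 129 TPM in 4 and 2 cells, against a listing at 0 in HFD 1 and 16.4 TPM in HFD 2. Agr2, the disulfide isomerase needed for mucin folding, averaged 499.8 and 485.5 TPM, against 37.6 and 93.6 TPM, yet was in 13 of 32 and 6 of 30 members, against 21 of 42 and 16 of 33.

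Of 13 goblet markers tested, 6 were called higher and 0 lower, against 20 (0.171%) and 1 of all 11692 genes. Their median log2 difference was 2.59, against −0.03 for all genes. Cells with at least 5 goblet markers at 10 TPM or more numbered 6 in HFD 1 and 1 in HFD 2 among class II-positive cells, and 0 and 2 among class II-negative cells. Without these cells the median of the list was −0.48 and 3 of the calls held, for Adh6a (3.87, SE 0.36, limma adjusted p = 0.00753), 2210407C18Rik and Rn45s. The markers of the list also chose the cells left out, so the fall in its median is no independent test. Adh1, Sepp1 and Ceacam10 then kept log2 differences of 2.25, 1.98 and 1.40 but had limma adjusted p = 0.320, 0.0923 and 0.419. The goblet score, the mean log2(TPM + 1) over 16 markers, was 1.26 in class II-positive and 0.59 in class II-negative cells of HFD 1, and 0.69 and 0.83 in HFD 2. The sets therefore had opposite signs. Of the 6 goblet-marker cells among the members of HFD 1, 5 also held Lgr5, while the 1 in HFD 2 did not.

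**Figure D4:**
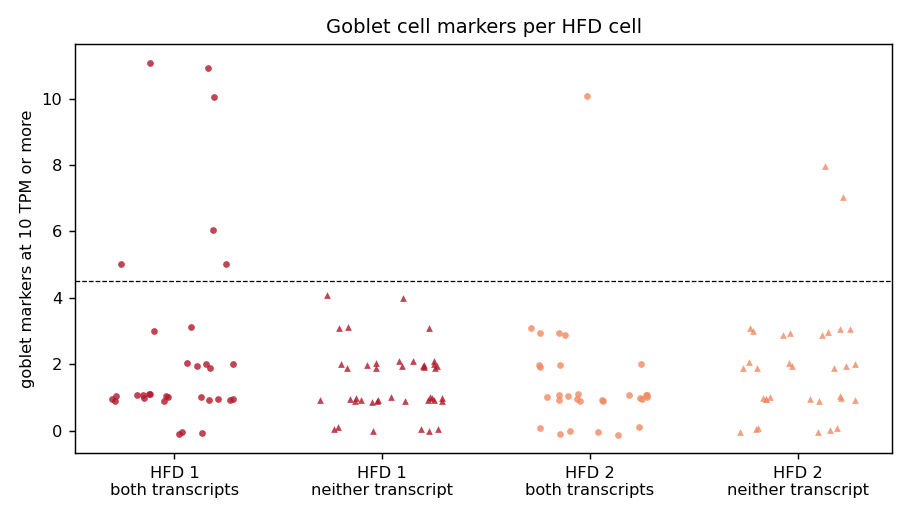
Number of goblet markers at 10 TPM or more in each HFD cell, with class II-positive cells left of class II-negative cells within each set; points are spread sideways and slightly up and down for legibility. Above the dashed line, at 5 markers or more, are 6 class II-positive and 0 class II-negative cells of HFD 1, and 1 and 2 of HFD 2.

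The levels of the remaining genes that the rule names were mostly set by few cells. Hpd, an enzyme of tyrosine breakdown, averaged 38.5 and 14.4 TPM in 3 and 2 members and was listed at 0 in class II-negative cells. Reg4, a secreted lectin, was in 1 member of each set. Ccl9, a chemokine, averaged 15.4 and 23.1 TPM, with 88.0% and 89.6% of the sum in 1 cell of each set. Vsig2 was in 8 of 32 and 10 of 30 members, against 0 of 42 and 4 of 33 class II-negative cells. Hepacam2 was in 5 and 1 members, and the calcium pump Atp2a3 in 5 and 5, against 6 and 4 class II-negative cells. Cd177 and Bex1, also called higher and picked after their values were seen, were in 10 and 12, and 6 and 7 members, against 6 and 4, and 2 and 3 class II-negative cells.

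At the top of the expression range the calls on mean TPM were of small size. Olfm4, an abundant secreted marker of crypt base stem cells and the only gene called lower, averaged 8188 and 11459 TPM in class II-positive cells, against 10291 and 13158 TPM in class II-negative cells, a log2 difference of −0.26 (SE 0.04, limma adjusted p = 0.00838). It did not pass without the block, with Rn45s excluded from the TPM total, without goblet-marker cells or without Paneth-marker cells, where it was −0.07 (limma adjusted p = 0.853). With log values averaged Olfm4 passed at a larger difference of −0.81 (SE 0.04). In the interquartile range of gene number it passed at −0.29 (SE 0.05, limma adjusted p = 5.26e-05). Rn45s, the ribosomal RNA precursor, took a median of 28.1% and 19.6% of TPM in class II-positive cells, against 26.4% and 18.2% in class II-negative cells, and was called higher with a log2 difference of 0.11 (SE 0.01). Because TPM has a fixed total, more Rn45s lowers all else in a cell.

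Lgr5 averaged 143 and 138 TPM in class II-positive cells, against 128 and 145 TPM in class II-negative cells, a log2 difference of 0.04 (SE 0.19). Ascl2, the transcription factor of crypt stem cells, averaged 67.1 and 123 TPM, against 112 and 81.9 TPM, with opposite signs in the sets. Of 24 stem cell markers tested, Olfm4 alone was called on mean TPM. With log values averaged Gkn3, another of these markers, passed as lower too (−0.89, SE 0.23, limma adjusted p = 0.0318). The stem cell score was 5.64 and 5.49 in class II-positive cells, against 5.93 and 5.66 in class II-negative cells. For cell division the sets differed in sign over all cells. Over 54 genes of G2/M phase the score was 2.55 in class II-positive and 3.64 in class II-negative cells of HFD 1, but 2.54 and 2.38 in HFD 2. Mki67, a marker of dividing cells, averaged 33.8 and 27.7 TPM, against 54.5 and 20.1 TPM. The S phase score was 3.70 and 3.56, against 3.84 and 3.67, and 0 of 46 S phase genes and 0 of 54 G2/M genes passed. Among cells in the interquartile range of gene number, 19 and 18 class II-positive and 19 and 16 class II-negative cells, the G2/M score difference was 0.547 in HFD 1 and 0.508 in HFD 2. In those cells 8 G2/M genes and 1 S phase gene passed, all higher. Over all 11697 genes tested there, 40 passed as higher and 10 as lower. Top2a, the topoisomerase of dividing cells, was at 2.04 (SE 0.36, limma adjusted p = 0.000461), and Cdk1, the kinase that drives mitotic entry, at 1.96 (SE 0.45, p = 0.0230). The others were Nusap1, Ube2c, Birc5, Cks1b, Aurka, Aurkb and, of S phase, Rrm2; these genes were named after their values were seen. With log values averaged over all cells Stmn1, a microtubule regulator on the proliferation list, passed as lower (−0.73, SE 0.18, limma adjusted p = 0.0202). Why the direction depended on the setting was not tested.

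Fabp1, Agr3 and Cyp27a1 were found in smaller shares of class II-positive cells, and none of them passed on mean TPM over all cells. Fabp1, which carries fatty acids inside enterocytes, was in 19 of 32 members of HFD 1 (59.4%, interval 40.6 to 76.3%) and 19 of 30 of HFD 2 (63.3%, 43.9 to 80.1%), against 38 of 42 (90.5%, 77.4 to 97.3%) and 29 of 33 (87.9%, 71.8 to 96.6%) class II-negative cells. Of the cells with 1 of the choosing transcripts, 16 of 17 and 26 of 29 held Fabp1. Mean Fabp1 was 330.1 and 222 TPM, against 428.5 and 646 TPM, a log2 difference of −0.96 (SE 0.21, limma adjusted p = 0.169). Averaging log values of single cells gave −2.73 (SE 0.32), which passed with adjusted p = 4.87e-14, and −2.32 (SE 0.30) with p = 0.0143 when goblet-marker cells were left out too. Without Paneth-marker cells mean Fabp1 passed too, at −1.17 (SE 0.17, limma adjusted p = 1.40e-08).

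Agr3, a relative of Agr2, was in 11 of 32 and 12 of 30 members, against 32 of 42 and 26 of 33 class II-negative cells, and averaged 26.6 and 28.5 TPM, against 62.2 and 91.8 TPM (limma adjusted p = 0.0833). It passed as lower with log values averaged (−2.69, SE 0.44, limma adjusted p = 1.74e-06). In the interquartile range of gene number it passed as well (−2.06, SE 0.40, limma adjusted p = 0.00196). Cyp27a1, the sterol 27-hydroxylase, was in 1 of 32 and 5 of 30 members, against 17 of 42 and 10 of 33 cells, and averaged 1.02 and 3.75 TPM, against 15.5 and 22.7 TPM (log2 −2.67, SE 0.48, limma adjusted p = 0.0535). Without Paneth-marker cells Cyp27a1 passed, at −2.72 (SE 0.57, limma adjusted p = 0.0022). With log values averaged over all cells it passed at −1.29 (SE 0.32, limma adjusted p = 0.0226). The other genes nearest to passing among those that were lower were the steroid dehydrogenase relative Hsd17b13 (limma adjusted p = 0.155) and the alpha-defensin Defa20 (p = 0.0975), whose close copies the counting may not separate. On mean TPM the enterocyte markers went both ways: of 22 tested, 11 were above 0 and 11 below, with a median log2 difference of 0.01 and 0 calls. When log values were averaged 3 passed as lower, against 32 of 11692 genes over all. These were Fabp1, Fabp2 (−1.29, SE 0.26, limma adjusted p = 0.000501) and Prap1 (−0.78, SE 0.20, limma adjusted p = 0.0415). Mean Fabp2 was 246 and 230 TPM, against 325 and 388 TPM. Sis, the brush border sucrase-isomaltase, averaged 4.44 and 8.77 TPM, against 1.01 and 1.04 TPM (log2 1.85, SE 0.63, limma adjusted p = 0.590). The enterocyte score was 2.92 and 2.93, against 3.16 and 3.19.

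Metabolic lists showed no calls on mean TPM over all cells. With log values averaged, 4 PPAR targets and fatty acid oxidation genes and 1 respiratory chain gene passed as lower. Over all genes in that setting 32 of 11692 did. Of 26 cholesterol synthesis genes 22 had a negative log2 difference and 0 passed, with a median of −0.31 against −0.03 for all genes. Sqle, the squalene epoxidase of this pathway, averaged 19.98 and 16.7 TPM in class II-positive cells, against 38.3 and 31.5 TPM in class II-negative cells (limma adjusted p = 0.673). The 50 tested PPAR targets and fatty acid oxidation genes had a median of −0.01, with Cpt1a, the gatekeeper of mitochondrial fatty acid import, at 75.5 and 107 TPM, against 102.2 and 101 TPM. Of 50 nuclear-encoded respiratory chain genes 40 were negative, with a median of −0.14 and 0 calls. Of 15 Paneth markers 0 passed, and their score was 1.02 in class II-positive and 0.88 in class II-negative cells of HFD 1 but 0.61 and 1.09 in HFD 2. In the interquartile range of gene number 5 of them, Lyz1, Defa3, Defa20, Defa22 and Defa23, passed as lower. Over all 11697 genes tested there 10 did. The score difference in those cells was 0.178 in HFD 1 and −0.718 in HFD 2.

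The second comparison asked how the class II-positive cells of the HFD differ from those of the control diet, which met the same rule. Over 11678 genes, with Cd74 and H2-Ab1 left out, 8 were higher (0.0685%) and 3 were lower (0.0257%) in the HFD cells, and 856 had an unadjusted p under 0.05 in limma. The median log2 difference of all genes was 0.11, and −0.05 once Rn45s was excluded from the TPM total. Rn45s took a median of 28.1% and 19.6% of TPM in class II-positive HFD cells, against 38.6% and 24.3% in class II-positive control cells, and its part in the differences was tested only by that exclusion, under which 4 genes passed. With the replicate number as a block 26 were higher and 4 lower. The sets carry only a number, and nothing in the labels pairs them. Leaving out 1 set at a time gave 50 calls without HFD 1, 65 without HFD 2, 15 without control 1 and 4 without control 2.

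The class II chains did not pass in this comparison. H2-Aa averaged 79.7 and 215 TPM in class II-positive HFD cells, against 202 and 303 TPM in class II-positive control cells (log2 −0.91, SE 0.40, limma adjusted p = 0.661). H2-DMb1 averaged 14.98 and 35.4 TPM, against 37.8 and 64.5 TPM, and H2-Eb1 90.0 and 205 TPM, against 155 and 218 TPM. All 4 of the chains tested, H2-DMa included, had a negative difference, with a median of −0.69. Ciita averaged 10.02 and 12.1 TPM, against 16.8 and 10.8 TPM. Tap1 averaged 27.7 and 30.9 TPM, against 22.9 and 25.02 TPM, a log2 difference of 0.28. Psmb8 averaged 119 and 274 TPM, against 155 and 175 TPM, so that the control values lay between those of the HFD sets. Sectm1b averaged 31.8 and 34.5 TPM, against 83.3 and 65.5 TPM (limma adjusted p = 0.309).

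The antimicrobial lectins Reg3b and Reg3g were lower in the class II-positive HFD cells. Reg3b was found in 0 of 32 and 0 of 30 of them, which allows shares of up to 9.38% and 10%, against 12 of 81 and 4 of 63 class II-positive control cells, with means of 249.7 and 121 TPM (limma adjusted p = 1.24e-06). Reg3g averaged 40.3 and 86.1 TPM, against 389.5 and 206 TPM (log2 −2.25, SE 0.38, adjusted p = 0.0413). Cyp27a1 averaged 1.02 and 3.75 TPM, against 22.3 and 25.3 TPM, and was in 1 of 32 and 5 of 30 cells, against 43 of 81 and 27 of 63 (log2 −3.00, SE 0.49, adjusted p = 0.0367). In both comparisons, which share the class II-positive HFD cells, its mean was lowest in those cells. Nrn1 and S100g, which the naming rule adds as the next lowest by p, did not pass on mean TPM (limma adjusted p = 0.0718 and 0.165). Nrn1 averaged 3.997 and 0.281 TPM, against 18.02 and 31.1 TPM, and S100g 0.275 and 2.01 TPM, against 10.6 and 13.0 TPM. When log values of single cells were averaged, Nrn1 did pass (−1.73, SE 0.32, limma adjusted p = 0.0334). Cyp27a1 passed there too (−1.82, SE 0.35, limma adjusted p = 0.0351), while Reg3b and Reg3g did not. Between the HFD classes Reg3g went the other way, with 26.7 and 13.9 TPM in class II-negative cells (limma adjusted p = 0.324). It passed as higher in class II-positive cells without Paneth-marker cells (2.07, SE 0.41, limma adjusted p = 0.000662). In the interquartile range of gene number it passed too (3.35, SE 0.59, limma adjusted p = 0.000451).

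Fabp1 was higher in the class II-positive HFD cells, at 330.1 and 222 TPM, against 24.5 and 49.1 TPM in class II-positive control cells (log2 2.92, SE 0.34, limma adjusted p = 0.00216). It was in 19 of 32 and 19 of 30 of them, against 27 of 81 and 31 of 63. The class II-positive HFD cells therefore held Fabp1 less often than class II-negative cells of the same sets and more often than class II-positive control cells. Transcripts of Paneth cells, the granular neighbours of crypt stem cells, were also called. Defa24, an alpha-defensin, averaged 199 and 177 TPM, against 16.2 and 7.73 TPM (log2 3.94, SE 0.34, adjusted p = 0.000114), and was in 11 of 32 and 8 of 30 cells, against 14 of 81 and 7 of 63. Of 15 Paneth markers tested 4 were higher, against 8 of all 11678 genes (0.0685%). Lyz1, the Paneth lysozyme, averaged 62.4 and 43.0 TPM, against 13.0 and 6.29 TPM, and Defa17 and Defa23, which may share reads with other defensins, were called too. Class II-negative HFD cells averaged 77.7 and 284 TPM of Defa24 and 77.9 and 143 TPM of Lyz1. High levels of these 2 transcripts were therefore not particular to the class II-positive HFD cells.

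The protein disulfide isomerase Pdia5 averaged 48.5 and 38.7 TPM, against 8.01 and 5.09 TPM (log2 2.58, SE 0.37, limma adjusted p = 0.0170). The uroguanylin gene Guca2b and the goblet gene Hepacam2 completed the calls. Without goblet-marker cells 6 of the 11 calls held: Reg3b, Fabp1, Lyz1, Defa17, Defa23 and Defa24. Pdia5, Guca2b, Hepacam2, Reg3g and Cyp27a1 did not pass there. Within the unfolded protein response list 21 of 25 genes were positive and 0 passed, with a median of 0.65 against 0.11 for all genes. Its chaperones Hspa5 and Calr averaged 233 and 204 TPM, against 105 and 111 TPM, and 256 and 185 TPM, against 92.7 and 99.5 TPM (limma adjusted p = 0.343 and 0.281). Class II-negative HFD cells had close levels, 225 and 182 TPM of Hspa5 and 257 and 174 TPM of Calr. Between the diets the median for 46 S phase genes was 0.54 with 0 calls. For 51 PPAR targets and fatty acid oxidation genes it was 0.27 with 1 call, Fabp1. Paneth-marker cells were 10 of 32 and 6 of 30, against 8 of 81 and 3 of 63. Without them 3 genes passed: Fabp1 at 2.74 (SE 0.35, limma adjusted p = 0.00402), Reg3b and Reg3g.

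**Figure D5:**
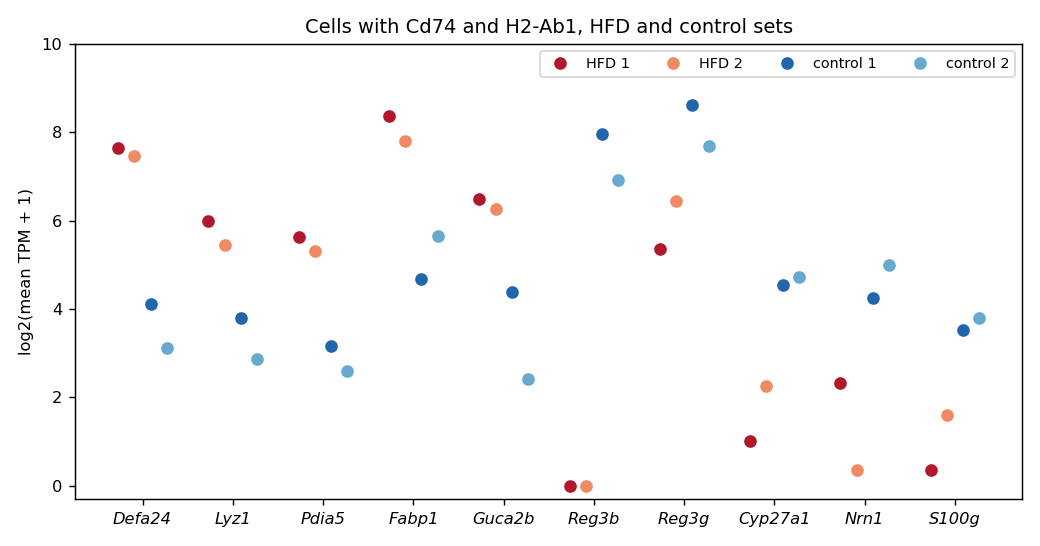
Mean TPM, as log2(mean TPM + 1), of 10 named genes in class II-positive cells of HFD 1, HFD 2, control 1 and control 2, from left to right for each gene. Both HFD sets lie above both control sets for Defa24, Lyz1, Pdia5, Fabp1 and Guca2b and below them for Reg3b, Reg3g, Cyp27a1, Nrn1 and S100g. Of these, Nrn1 and S100g did not pass on mean TPM.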

How the data were processed

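Per the submitters' processing notes, the authors' tools included Bowtie2 and RSEM with the build mm10. The deposited values are TPM per gene and cell, with no counts. They sum to nearly the same total in every cell. Cells of 2 sets per diet with at least 2000 genes above TPM 0 were kept. TPM was averaged over the cells of each set and class, and log2(mean TPM + 1) was compared in limma 3.58.1 (R 4.3.3) with a mean-variance trend. The HFD classes had the set as a block, and the diets were set 2 against 2 without one. p-values were adjusted over all genes tested by Benjamini-Hochberg at 0.05. The members and gene lists were chosen with earlier results of these data known. Named genes are the 10 called in each direction with the largest difference, the nearest to passing where fewer were called, members of the lists and genes fixed by name. The test was tested on simulated data. It gave no wrong signs, but in some draws more calls were false than the threshold allows. Matching between near-identical genes (alpha-defensins, Reg3, H2-Q) is uncertain. Intervals are Clopper-Pearson, and a share of 0 is limited by 3 counts. Alternatives covered the block, trend, pseudocount, filters, averaging and cell choice.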

Additional observations from a re-analysis of the deposited data

How the results depend on the processing

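Between the HFD classes, 21 genes passed. That count was 12 with no replicate block, 0 without a mean-variance trend (683 at an unadjusted p under 0.05 in limma), 13 with Rn45s excluded, 0 with no filter on low genes (792), 45 with the mean of log values, 50 in the interquartile range of gene number, 37 with both transcripts at 10 TPM or more, and 4 with Cd74 alone. It was 3 without goblet-marker cells and 4 with log values too, alternatives chosen after seeing the data. Without Paneth-marker cells it was 24, with 19 higher and 5 lower, of which 8 were among the 21. The mean of log values gave 13 higher and 32 lower, of which 9 were among the 21. The interquartile range gave 40 higher and 10 lower, of which 11 were among the 21. Between diets 11 genes passed. That count was 30 with the replicate block (a shared number only, with no pairing in the labels), 1 without the trend, 4 to 65 when 1 set was left out, 4 with Rn45s excluded, 5 with pseudocount 0.1, 0 with no filter (1073 at an unadjusted p under 0.05), 20 at a mean of at least 5 TPM, 5 with log values, 5 at 4000 genes or more, 4 in the interquartile range, 3 without Paneth-marker cells, 17 at 10 TPM or more, 6 without goblet-marker cells and 1 with log values too. The share of class II-positive HFD cells, 33.9% on average, was 41.2% in the interquartile range and 31.8% without goblet-marker cells. Score differences between the HFD classes moved as follows. Without Paneth-marker cells the stem cell score was −0.0758, the S phase score 0.0526 and the enterocyte score −0.170. Without goblet-marker cells these were −0.0607, 0.145 and −0.116, and the goblet score was −0.115. In the interquartile range the S phase score was 0.393, G2/M 0.528, enterocyte 0.0533, goblet −0.0891 and class I 0.456. The enterocyte score was −0.233 at 10 TPM, −0.211 with Cd74 alone and −0.212 at 4000 genes. With 1 set left out, goblet ran from −0.142 to 0.671, Paneth from −0.476 to 0.135 and class I from 0.144 to 0.395. Signs reversed for 5 goblet markers and for Atp2a3: without goblet-marker cells Guca2a −0.48, Agr2 −0.73, Tff3 −2.05 and Fcgbp −1.34; with log values too Guca2a −0.014, Atp2a3 −0.039, Agr2 −1.32, Tff3 −0.23 and Fcgbp −0.079; without Paneth-marker cells Spink4 −0.99 and Agr2 −1.06; for Agr2 −0.70 with log values and −0.41 in the interquartile range. The goblet-marker cells left out were chosen by these same goblet markers. Beyond the cells left out, the cause of the reversals was not tested. Of the called genes named, 15 of 21 between HFD classes and 11 of 11 between diets reversed under none of these alternatives. Depth is unknown, so transcripts listed at 0 limit every share.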

Other observations

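Pdx1, a transcription factor of the upper small intestine that was picked after its values were seen, was in 14 of 32 and 10 of 30 class II-positive HFD cells, in 5 of 17 and 1 of 29 HFD cells with 1 of the choosing transcripts, and in 6 of 42 and 3 of 33 class II-negative HFD cells. It was in 22 of 81 and 17 of 63 class II-positive control cells. Pdx1 did not pass between the HFD classes (log2 1.37, SE 0.48, limma adjusted p = 0.641). Gata4, another transcription factor picked after its values were seen, averaged 57.7 and 34.6 TPM, against 43.5 and 40.3 TPM in class II-negative cells. Its log2 difference was 0.09 (SE 0.29), with opposite signs in the sets.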
